A study of Rattus norvegicus with 9 samples.

Results

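The genes described here are the interferon-stimulated effector genes of the rat vestibular epithelium, the genes whose products act against viruses inside a cell that has sensed interferon. They were chosen by symbol, from the families Oas, Ifit, Ifitm, Gbp, Ifi, Isg and Mx together with Usp18, Rsad2, Eif2ak2, Igtp, Irgm, Parp9, Parp10, Parp12, Parp14, Herc6, Uba7, Rtp4, Cmpk2, Xaf1, Bst2 and Lgals9, among protein-coding genes with at least 10 counts summed over all libraries. The list was drawn up with earlier results of these data known, so the shares called below describe it and do not test it. The rule found 51 genes among the 16364 protein-coding genes that reach this minimum. Gbp3, Ifitm5 and Ifitm6 match the symbols but stayed under the minimum with 3, 1 and 2 counts. Oas3 and Gbp6 reached it only with their IDPN-7wk counts. The study asked how the vestibular sensory epithelium responds to chronic exposure to 3,3′-iminodipropionitrile (IDPN), a nitrile that damages the sensory hair cells of the inner ear, and its RNA-seq series holds 9 libraries in 3 groups of 3 male Long-Evans rats. Control rats drank plain water, IDPN-3wk rats drank 20 mM IDPN for 3 weeks and IDPN-7wk rats drank 20 mM IDPN for 7 weeks. Each library was made from the utricles and cristae of 1 rat, so it mixes hair cells, supporting cells, nerve fibres, Schwann cells, vessels and resident immune cells. According to the study's methods, the control group holds animals killed at each of the time points, and the sources used here do not give the age of the rats in this experiment. The labels name the strain as the genotype of every rat and no mutation.

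Type I and type III interferons bind receptors that activate the kinases JAK1 and TYK2, and these phosphorylate transcription factors of the STAT family, which join IRF9 and bind a DNA element named the interferon-stimulated response element, or ISRE. Type II interferon acts through a STAT dimer that binds another element, the gamma-activated site, or GAS. The effector genes switched on in this way degrade viral RNA, block translation, trap virus at membranes, tag proteins with the ubiquitin-like protein ISG15 or limit the signal itself, and many respond to inflammation as well as to virus.

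The promoters of these genes were read first, since the ISRE is the element that the family has in common by background knowledge. RefSeq promoters of the assembly GRCr8, each running from 250 bases before to 50 bases after a gene's start, were matched by symbol to 40 of the 51 genes. The 11 without an entry were Ifit1, Ifit2, Ifitm1, Ifi27l2b, Isg15, Mx2, Oas1g, Oas2, Parp10, Rtp4 and Usp18. The core of the ISRE, searched as GAAANNGAA on both strands, was present in a promoter of 28 of these 40 genes (70.0%), against 2820 of all 27457 genes with a promoter (10.3%). The core of the GAS, searched as TTCNNNGAA, which reads the same on both strands, was present in 11 of the 40 (27.5%), against 9.39% of all genes. The ISRE and GAS searches share few matches, since 1 of 38 ISRE cores in the effector genes overlapped a GAS core. Of the 19 genes with a promoter entry that were called higher after 7 weeks of IDPN, 15 held an ISRE core (78.9%), and of the other 21 genes 13 did (61.9%). The 4 called genes in which these letters were not found in this window were Herc6, Ifi30, Parp9 and Uba7. A match is a description of the letters and does not show that a factor bound there.

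The stretches printed here lie upstream of the start of the 8 genes with an ISRE core and the smallest p at 7 weeks, with Oas1b added because it is a close relative of Oas1a and Oas1i. Each is 60 bases long and written 5′ to 3′ on the gene's own strand, with the ISRE core in capitals.
Ifi27, chr6:128355203-128355262, plus strand: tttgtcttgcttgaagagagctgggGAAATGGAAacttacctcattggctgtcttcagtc
Ifitm3, chr1:205541768-205541827, minus strand: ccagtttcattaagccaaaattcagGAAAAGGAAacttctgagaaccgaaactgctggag
Eif2ak2, chr6:21941094-21941153, plus strand: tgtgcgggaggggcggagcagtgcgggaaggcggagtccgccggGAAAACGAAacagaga
Oas1a, chr12:41330406-41330465, plus strand: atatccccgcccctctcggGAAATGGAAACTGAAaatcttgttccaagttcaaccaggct
Gbp2, chr2:234005667-234005726, plus strand: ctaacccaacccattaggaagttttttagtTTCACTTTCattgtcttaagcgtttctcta
Lgals9, chr10:64428071-64428130, minus strand: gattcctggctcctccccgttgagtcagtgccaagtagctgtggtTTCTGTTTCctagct
Irgm, chr10:33742579-33742638, minus strand: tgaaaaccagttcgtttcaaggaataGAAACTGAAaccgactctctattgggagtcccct
Oas1i, chr12:41285166-41285225, plus strand: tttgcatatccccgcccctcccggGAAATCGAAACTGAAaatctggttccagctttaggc
Oas1b, chr12:41395871-41395930, minus strand: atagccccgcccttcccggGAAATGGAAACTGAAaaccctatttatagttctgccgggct

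In Gbp2 and Lgals9 the core lies on the opposite strand and is printed as its reverse complement. Oas1a, Oas1b and Oas1i each carry overlapping cores whose first letters are 6 bases apart, which gives the run of 15 capitals. Such a pair, a pattern seen only after the sequences were read, was also present in Bst2 and Oas3, making 5 of the 40 genes, against 0.193% of all genes with a promoter. Near-identical gene copies can share reads, so separate counts within the Oas1, Ifit, Ifitm, Gbp and Mx families are uncertain. The counting is not stated to use strand, so reads of antisense or overlapping genes could not be separated.

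Total counts ran from 31100118 to 46018385 per library, and 3 counts, taken as the limit that a count of 0 allows, corresponded to 0.0611 to 0.101 CPM (counts scaled to a common library size). Control replicate 3 and IDPN-3wk replicates 1 and 2 stood apart, with 15223 to 15358 genes detected at equal depth against 16608 to 17090 in the other libraries. The sample titles begin with a number that all 3 controls share and no exposed rat carries. IDPN-7wk replicate 1 and IDPN-3wk replicate 1 share another number, and replicates 2 and 3 share a number within IDPN-3wk rats and a different one within IDPN-7wk rats. The 2 IDPN-7wk libraries with the same number were the closest replicate pair, at a chi-square of 18.68 per gene against 24.38 to 75.52 in the other pairs. Other pairs with the same number were not all close, with IDPN-3wk replicates 2 and 3 at 65.82 and the control pairs at 24.38, 61.24 and 68.61. The meaning of the number is not stated, so between exposed and control rats it cannot be told apart from exposure.

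Together the effector genes made up a small share of the epithelium's counts in control rats, a slightly larger one after 3 weeks and a severalfold larger one after 7 weeks. Their summed level was 753, 837 and 900 CPM in the control libraries, 1099, 1145 and 1023 CPM in the IDPN-3wk libraries and 3226, 2574 and 2576 CPM in the IDPN-7wk libraries. No group overlapped another. As a share of all counts this was 0.0734 to 0.0841% in control, 0.102 to 0.109% in IDPN-3wk and 0.272 to 0.344% in IDPN-7wk rats. In bulk tissue such a level depends both on how many cells carry the transcript and on how much each holds. More cells that carry it and more RNA per cell cannot be told apart, nor can fewer cells and less RNA per cell.

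Of the 51 genes, 49 passed the filter on low counts and were tested with edgeR's quasi-likelihood test, and a gene was called when its adjusted p was under 0.05 and its fold change over 1.5. After 7 weeks 28 of the 49 rose (57.1%), against 2.00% of the 15517 genes tested, and these 28 made up 9% of all 311 genes called higher. None was called lower, against 3.13% of all genes, none had an unadjusted p under 0.05 in that direction (10.7% of all genes did) and DESeq2 called none lower (5.33% of all genes it tested). At an unadjusted p under 0.05, 40 were higher, against 8.55% of all genes. DESeq2 called 37 higher, against 3.48% of all genes, adding Bst2, Cmpk2, Gbp4, Ifi35, Isg20, Oas1g, Oasl, Parp10 and Xaf1, and below a gene that passed or was called did so by edgeR unless DESeq2 is named. All 3 IDPN-7wk libraries lay above all 3 controls in 42 of the 49 genes, against 17.2% of all genes. The median log2 fold change was 1.83, where that of all genes tested was 0.0097, and only Ifitm10 had a fitted value under 0. A gene that is low in control rats could pass the filter through its level in exposed rats, which bears on Oas1e, Oas1h, Oas2 and Ifi44l, the 4 that the filter dropped when the IDPN-7wk libraries were left out. Over the other 45 genes, 27 were called and the median was 1.79.

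After 3 weeks 2 of the 49 genes rose, Ifi30 and Ifitm3 (4.08%), against 0.438% of all genes tested. None was called lower, against 1.21% of all genes. At an unadjusted p under 0.05, 12 were higher, against 7.12% of all genes, and 2 were lower, against 8.63%. DESeq2 called 5 higher, adding Ifitm1, Oas1a and Usp18, against 1.54% of all genes it tested, and 2 lower, Mx1 and Oas2, against 3.50%. Neither edgeR call held in every alternative fit. That of Ifitm3 was lost in 5 of 16 and that of Ifi30 in 1 of 16, the fit without control replicate 2. The 3 IDPN-3wk libraries lay above all controls in 12 genes (24.5%), against 8.78% of all genes. The median log2 fold change was 0.39, beside -0.000467 for all genes.

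The exposure times were also compared directly. Age and day of killing are not given for each library, so length of exposure cannot be told apart from them. Between IDPN-7wk and IDPN-3wk rats 20 genes were higher at 7 weeks (40.8%), against 0.348% of all genes, and these 20 were 37% of all 54 genes called in that direction. None was called lower, against 0.135% of all genes, none had an unadjusted p under 0.05 in that direction (7.46% of all genes did), and DESeq2 called none lower (2.03% of all genes it tested). At an unadjusted p under 0.05, 34 were higher, against 6.33% of all genes, and DESeq2 called 29 higher, against 1.84%. The groups were separate, with every IDPN-7wk library higher, in 36 of the 49 genes, against 12.1% of all genes. The median log2 difference was 1.40. Without Oas1e, Oas1h, Oas2 and Ifi44l, on which the filter bears, 19 of 45 genes were called, 34 were separate and the median was 1.41. The 7-week, 3-week and direct comparisons share libraries, so their counts are not independent of each other.

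**Figure D1:**
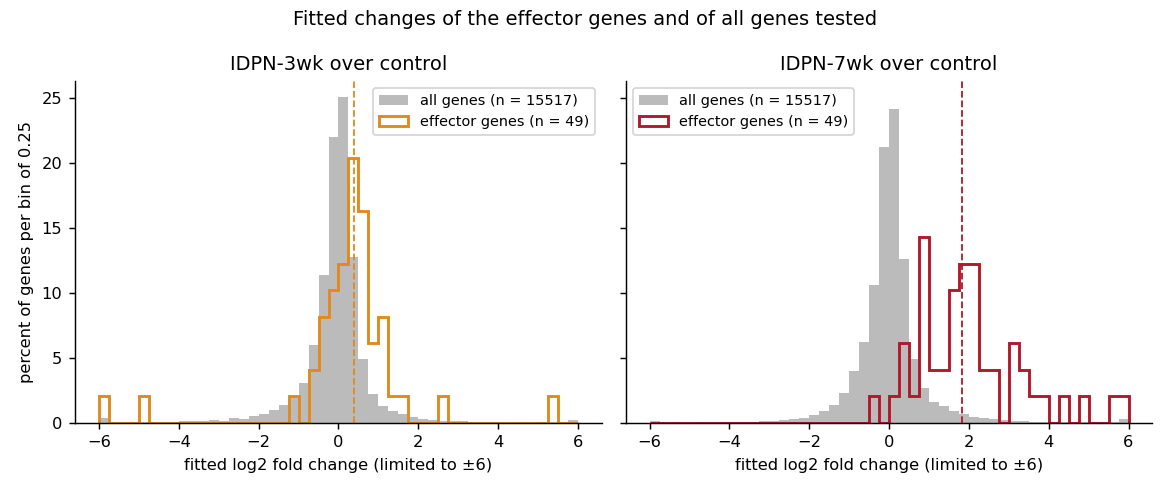
Fitted log2 fold changes over control (x axis, values past ±6 drawn at the edge) of all 15517 genes tested (grey) and of the 49 effector genes tested (coloured outline), as percent of genes per bin (y axis), at 3 weeks (left) and 7 weeks (right). The dashed line is the median of the effector genes, 0.39 at 3 weeks and 1.83 at 7 weeks.

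**Figure D2:**
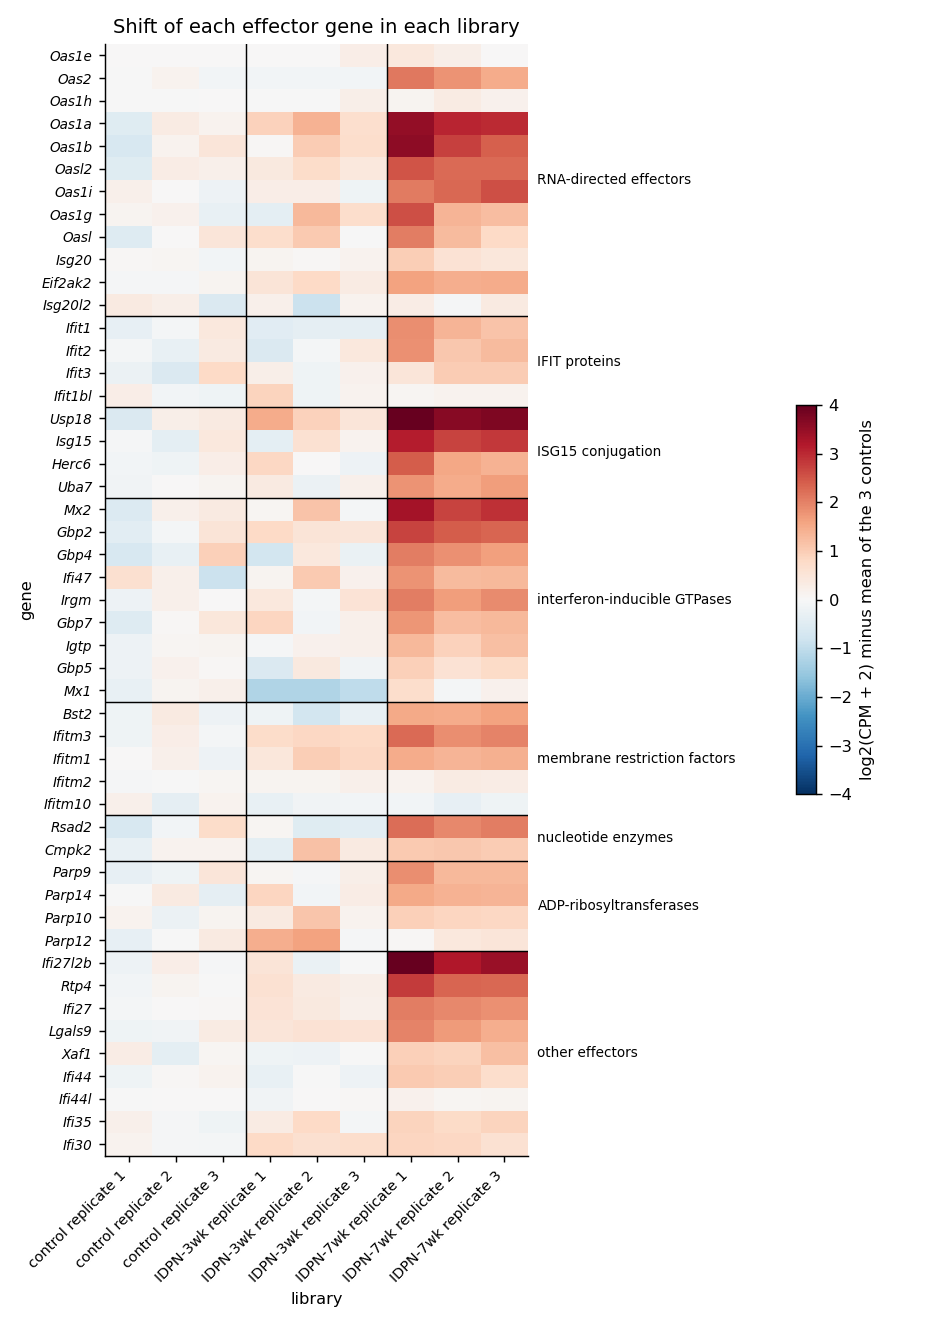
Each row is 1 of the 49 tested effector genes and each column 1 library, coloured by log2(CPM + 2) minus the mean of the 3 control libraries, with red for higher and blue for lower. The IDPN-7wk columns are red in nearly every row, with median shifts of 1.80, 1.35 and 1.31, and the IDPN-3wk columns have median shifts of 0.205, 0.163 and 0.168.

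The genes that act on RNA were examined first. The oligoadenylate synthetases sense double-stranded RNA and make the messenger that activates RNase L. Oas1a (ENSRNOG00000001369) stood at 4.10, 8.71 and 7.46 CPM in control, at 14, 20.2 and 11.6 CPM in IDPN-3wk and at 95.3, 68.7 and 65.6 CPM in IDPN-7wk rats. The 3 groups were fully separate and rose in the order of exposure. The change at 7 weeks had a log2 value of 3.50 (standard error 0.322, edgeR adjusted p = 0.000267), an 11.3-fold difference, and that at 3 weeks 1.17 (standard error 0.302, adjusted p = 0.0877), which did not pass. IDPN-7wk rats exceeded IDPN-3wk rats by 2.33 on the log2 scale (adjusted p = 0.00937).

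Other synthetases rose at 7 weeks too. Oas1i (ENSRNOG00000047076) was at 1.91 to 3.16 CPM in control and 2.03 to 3.47 CPM in IDPN-3wk libraries, which overlapped, and at 17, 20.3 and 25.2 CPM in IDPN-7wk libraries, which is 3.03 over control on the log2 scale (standard error 0.324, adjusted p = 0.000621). Oas1b rose by 3.29 (adjusted p = 0.00363), from 2.83 to 8.69 CPM in control to 37.6 to 88.5 CPM at 7 weeks, and Oasl2, a relative with ubiquitin-like domains, by 3.19 (adjusted p = 0.00275). Oas1g and Oasl had log2 fold changes of 2.43 and 2.02 at 7 weeks and did not pass (adjusted p = 0.0536 and 0.0945). Every IDPN-7wk library lay above every control in both, as in 17.2% of all genes tested.

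Oas2 was detected almost solely at 7 weeks. Its counts were 6, 12 and 0 in control, 0 in each IDPN-3wk library and 362, 269 and 160 in IDPN-7wk libraries. The change over control had a log2 value of 4.97 (standard error 1.15, adjusted p = 0.0443). The filter kept Oas2 only through the IDPN-7wk libraries, where it is high, so its adjusted p values are given as a description. Against the IDPN-3wk group, taken at 3 counts per library, the mean of 5.65 CPM was at least 61.7-fold higher. The edgeR adjusted p of 0.048 belongs to the fitted difference and not to this bound. That call was lost in 9 of 15 alternative fits (adjusted p up to 0.207), and the call over control in 6 of 15. Oas3 and Gbp6 did not pass the filter. Oas3 had 26, 3 and 14 counts in IDPN-7wk rats and 0 in the other 6 libraries, at least 3.65-fold higher than 3 counts per control library and not tested, and Gbp6 had at most 9 counts in any library. Oas1e and Oas1h reached at most 33 counts in a library and were not called.

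Eif2ak2 (ENSRNOG00000048315) encodes the double-stranded RNA kinase PKR, which halts translation. It was at 42.9 to 49 CPM in control, 56.3 to 78.8 CPM in IDPN-3wk and 126 to 141 CPM in IDPN-7wk rats, with no overlap between groups. The 3-week log2 value of 0.57 did not pass (standard error 0.133, adjusted p = 0.0653), and the 7-week value was 1.56 (standard error 0.135, adjusted p = 0.000191). The exonuclease gene Isg20 was low, 0.563 to 0.877 CPM in control and 1.80 to 3.50 CPM at 7 weeks, and did not pass (adjusted p = 0.151). Isg20l2, a nuclease of ribosomal RNA processing that shares the family name, had overlapping groups throughout and a log2 value of 0.19. Altogether 6 of the 12 tested genes of this group rose at 7 weeks, against 2.00% of all genes tested, with a median log2 fold change of 3.11. Without Oas1e, Oas1h and Oas2, on which the filter bears, 5 of 9 rose and the median was 2.43.

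The IFIT proteins bind viral RNA ends and block its translation. Ifit1 was at 6.88, 8.52 and 13.1 CPM in control, at 6.13, 6.67 and 6.79 CPM in IDPN-3wk and at 38.6, 26.7 and 22.6 CPM in IDPN-7wk rats. The IDPN-3wk libraries all lay under the controls, by -0.54 on the log2 scale, a difference that did not pass (adjusted p = 0.391), while the rise to 7 weeks was 1.62 over control (standard error 0.285, adjusted p = 0.00862) and 2.17 over IDPN-3wk (adjusted p = 0.0103). Ifit2 rose by 1.51 at 7 weeks (adjusted p = 0.0211). Ifit3 had a log2 value of 0.93 with overlapping groups (adjusted p = 0.321), and Ifit1bl, at 0 to 2.15 CPM, varied more within groups than between them.

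All 4 genes of the ISG15 cycle rose at 7 weeks, against 2.00% of all genes tested, at a median of 2.76 on the log2 scale. In the direct comparison 3 of them were higher than at 3 weeks, against 0.348% of all genes tested. Isg15 (ENSRNOG00000021802), the ubiquitin-like tag itself, was at 4.12, 2.82 and 6.50 CPM in control, at 2.86, 7.64 and 4.92 CPM in IDPN-3wk and at 53.5, 38.8 and 42.5 CPM in IDPN-7wk rats. Control and IDPN-3wk libraries overlapped, and the 10.0-fold rise at 7 weeks had a log2 value of 3.32 (standard error 0.402, adjusted p = 0.00117). Uba7, the enzyme that activates ISG15, rose by 1.83 (standard error 0.215, adjusted p = 0.00101) from 9.36 to 11.5 CPM in control to 32.6 to 41.5 CPM. Herc6, a ligase that joins ISG15 to its targets in rodents, rose by 2.19 (adjusted p = 0.0139), and its direct comparison with 3 weeks did not pass (adjusted p = 0.107).

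Usp18 (ENSRNOG00000037198) removes ISG15 from proteins and is also the main negative regulator of the type I interferon receptor. Its level was 2.35, 5.67 and 6.41 CPM in control, 16.4, 10.3 and 7.16 CPM in IDPN-3wk and 111, 79.6 and 85.3 CPM in IDPN-7wk rats. The groups did not overlap. The 7-week change, 19.1-fold, had a log2 value of 4.26 (standard error 0.415, adjusted p = 0.000384), and that at 3 weeks was 1.23 (standard error 0.380, adjusted p = 0.15), which did not pass.

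The interferon-inducible GTPases attack viruses and the vacuoles of intracellular parasites. Mx2 (ENSRNOG00000001963) was at 14.5, 25.6 and 29.0 CPM in control, at 23.4, 50.8 and 20.7 CPM in IDPN-3wk and at 241, 154 and 180 CPM in IDPN-7wk rats. Control and IDPN-3wk libraries overlapped, and the 7-week value lay 3.06 above control on the log2 scale (standard error 0.380, adjusted p = 0.00136). Gbp2, a guanylate-binding protein, rose by 2.61 at 7 weeks (standard error 0.263, adjusted p = 0.000457), from 8.76 to 18.7 CPM in control to 71.5 to 92.8 CPM. Irgm and Igtp, immunity-related GTPases, rose by 1.99 (adjusted p = 0.000604) and 1.21 (adjusted p = 0.00231), and Gbp7 by 1.79 (adjusted p = 0.0461).

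Mx1, an antiviral GTPase close to Mx2, was not called by edgeR in any comparison, while DESeq2 called it lower at 3 weeks and higher at 7 weeks than at 3 weeks. Its counts were 64, 94 and 120 in control, 0, 0 and 9 in IDPN-3wk and 272, 118 and 128 in IDPN-7wk rats. The IDPN-3wk libraries all lay under the controls, with a log2 value of -4.82 that did not pass (standard error 1.20, edgeR adjusted p = 0.0825, and 3.22e-05 with DESeq2). Without IDPN-3wk replicate 3, which leaves that group at 0 counts, edgeR called it as well (adjusted p = 0.0101 at 3 weeks and 0.0143 in the direct comparison). Control and IDPN-7wk libraries overlapped (log2 value 0.48, adjusted p = 0.863). Both IDPN-3wk libraries at 0 were among those with fewer detected genes, as was control replicate 3, which had 120 counts. Gbp4, Gbp5 and Ifi47 had log2 values of 2.20, 0.91 and 2.04 at 7 weeks and did not pass. In each, every IDPN-7wk library lay above every control, as in 17.2% of all genes tested.

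The membrane restriction factors stop virus at the cell surface or in endosomes. Ifitm3 (ENSRNOG00000015078) was at 49.8, 67.6 and 52.6 CPM in control, at 94.8, 102 and 99.3 CPM in IDPN-3wk and at 279, 209 and 228 CPM in IDPN-7wk rats. The groups were fully separate and the gene was called in all 3 comparisons with all 9 libraries in the fit, at log2 fold changes of 0.80 at 3 weeks (standard error 0.142, adjusted p = 0.0214, range over the alternatives 2.08e-05 to 0.102), 2.08 at 7 weeks (error 0.146, edgeR adjusted p = 5.23e-05) and a difference of 1.28 between them (adjusted p = 0.00374). Ifitm1 was at 2.73 to 4.26, 5.48 to 8.79 and 12.1 to 13.4 CPM in the same order of groups and rose by 1.86 at 7 weeks (adjusted p = 0.00403), while its value of 1.06 at 3 weeks did not pass (adjusted p = 0.0944).

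The other genes of this group were not called by edgeR at either time. Ifitm2 was at 124 to 135 CPM in control and 143 to 163 CPM at 7 weeks, a log2 value of 0.26 (standard error 0.0879, adjusted p = 0.12). Bst2, or tetherin, which holds budding virions at the membrane, was at 1.13 to 2.63 CPM in control, 0.168 to 1.14 CPM in IDPN-3wk and 7.98 to 8.91 CPM in IDPN-7wk rats, with log2 values of -1.12 and 2.35 (adjusted p = 0.426 and 0.0614). The 7-week value of Bst2 was called by DESeq2 (adjusted p = 0.00162) and by edgeR with only the compared groups in the fit (adjusted p = 0.00826) or without IDPN-3wk replicate 1 or 2 (adjusted p = 0.0428 and 0.0113). Ifitm10, which carries the family name and is not known for induction by interferon, had overlapping groups and a value of -0.48 at 7 weeks.

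Rsad2 and Cmpk2, which lie side by side in the genome, act on nucleotides. Rsad2 encodes viperin, which makes a chain-terminating nucleotide, and was at 8.04, 12.4 and 24.2 CPM in control, 14.4, 9.09 and 9.59 CPM in IDPN-3wk and 71.2, 57.6 and 62.6 CPM in IDPN-7wk rats. It rose by 2.10 over control (standard error 0.359, adjusted p = 0.00743) and 2.53 over IDPN-3wk (adjusted p = 0.0147). Cmpk2, a mitochondrial nucleotide kinase, had a log2 value of 1.12 at 7 weeks that did not pass (adjusted p = 0.102). All IDPN-7wk libraries, at 35.3 to 37.0 CPM, lay above the controls, as in 17.2% of all genes tested.

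Among the ADP-ribosyltransferases Parp9 and Parp14, which are known for roles in interferon responses, rose at 7 weeks by 1.51 (adjusted p = 0.00469) and 1.45 (adjusted p = 0.00889). Parp10 did not pass (log2 value 0.96, adjusted p = 0.0676). Parp12, which binds RNA in stress granules, had its highest levels at 3 weeks, at 16.6, 18.9 and 4.67 CPM in IDPN-3wk rats and at 5.05, 7.24 and 7.67 CPM in IDPN-7wk rats, beside 3.42 to 6.72 CPM in control. Its highest values were in both IDPN-3wk libraries with fewer detected genes, whereas control replicate 3 of the same kind was at 6.72 CPM, and no comparison passed (adjusted p = 0.182 at 3 weeks), except that the 3-week value did without IDPN-3wk replicate 3, the lowest of its group (adjusted p = 0.0267).

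Ifi27 (ENSRNOG00000009263), a small membrane protein of mitochondria and the nuclear envelope, was the effector gene with the smallest p at 7 weeks. It was at 137, 146 and 148 CPM in control, 209, 191 and 166 CPM in IDPN-3wk and 605, 552 and 512 CPM in IDPN-7wk rats. The groups did not overlap, and the 7-week value lay 1.95 above control on the log2 scale (standard error 0.107, adjusted p = 2.43e-05). The 3-week value of 0.39 did not pass (standard error 0.104, adjusted p = 0.0961). Its neighbour Ifi27l2b was near absent before 7 weeks, at 0.458 to 1.38 CPM in control and 0.370 to 2.04 CPM in IDPN-3wk rats, and reached 65.0, 24.2 and 28.8 CPM in IDPN-7wk rats, which is 5.51 above control on the log2 scale (standard error 0.689, adjusted p = 0.00139).

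Of the remaining effector genes, Rtp4 and Lgals9 had separate groups in all 3 comparisons, as Ifi27 did. Rtp4, a chaperone that also restricts flaviviruses, rose by 2.65 at 7 weeks (standard error 0.187, adjusted p = 5.23e-05) from 12.8 to 15.3 CPM in control to 75.8 to 108 CPM, and Lgals9, the lectin galectin-9, by 1.77 (standard error 0.181, adjusted p = 0.000477). Ifi44 rose less, by 0.97 (adjusted p = 0.00953). Ifi35 had an adjusted p of 0.0501 and Xaf1, a pro-apoptotic protein, of 0.0633, with log2 values of 0.90 and 1.44. Neither passed, and every IDPN-7wk library lay above every control in both, as in 17.2% of all genes tested. Ifi44l was at 0 to 0.489 CPM.

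Ifi30, a thiol reductase of antigen processing in lysosomes, was as high at 3 weeks as at 7 weeks within its error. It was at 59.9, 52.6 and 51.3 CPM in control, 96.2, 85.7 and 90.6 CPM in IDPN-3wk and 99.6, 97.6 and 85.0 CPM in IDPN-7wk rats. Both exposed groups lay above the controls and overlapped each other, by 0.73 on the log2 scale at 3 weeks (standard error 0.111, adjusted p = 0.0117) and, with the same standard error, by 0.78 at 7 weeks (adjusted p = 0.00282). The difference between the exposure times was 0.05 with a standard error of 0.110 (adjusted p = 0.897). Ifitm3, the other gene called at 3 weeks, rose further.

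**Figure D3:**
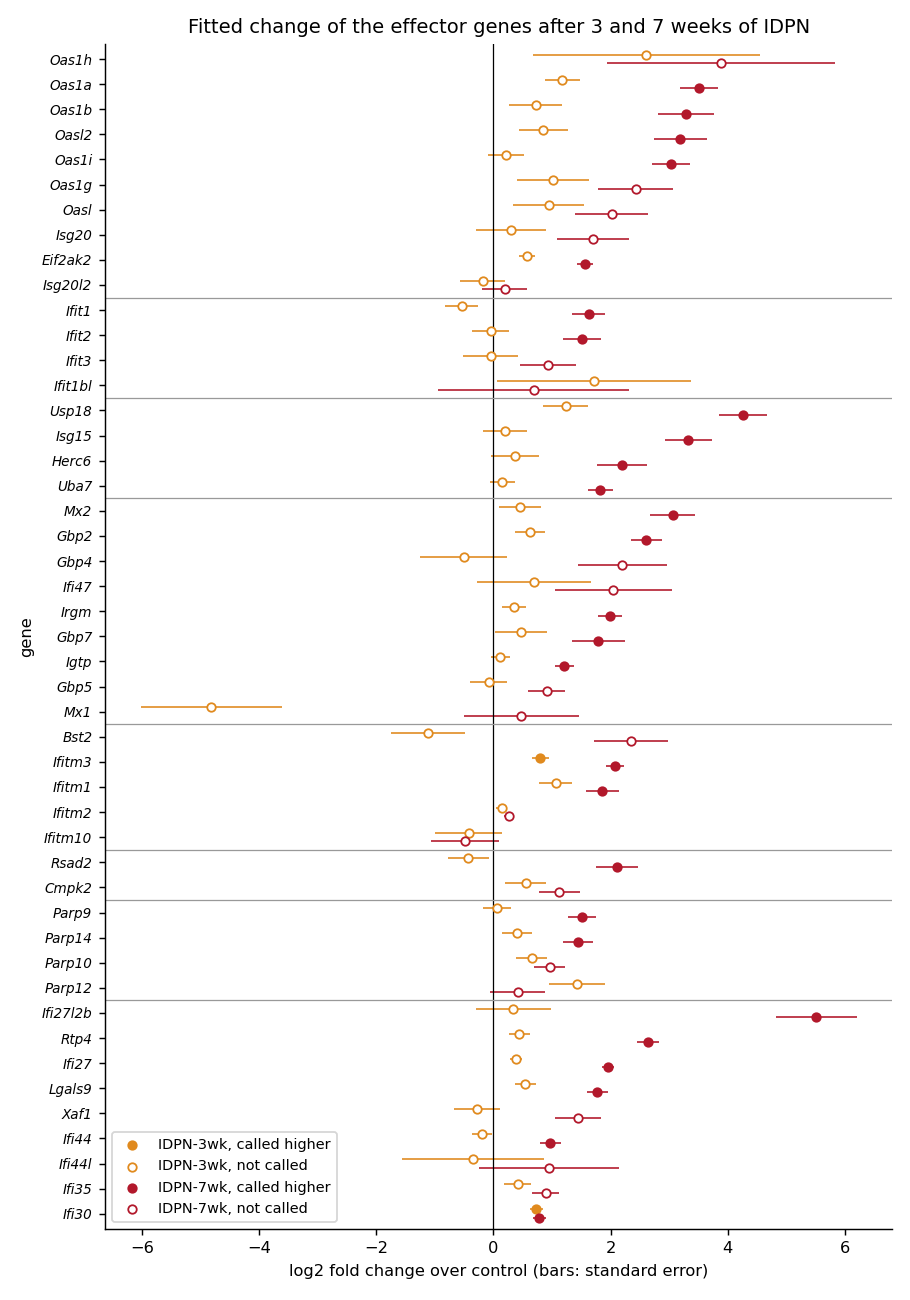
Fitted log2 fold change over control (x axis) with its standard error for each effector gene (rows, by role) at 3 weeks (orange) and 7 weeks (red), where filled points were called higher and open points were not called. Oas1e and Oas2, with a group at 0 counts, are left out. The red point lies to the right of the orange one in all rows but Parp12, Ifit1bl and Ifitm10.

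**Figure D4:**
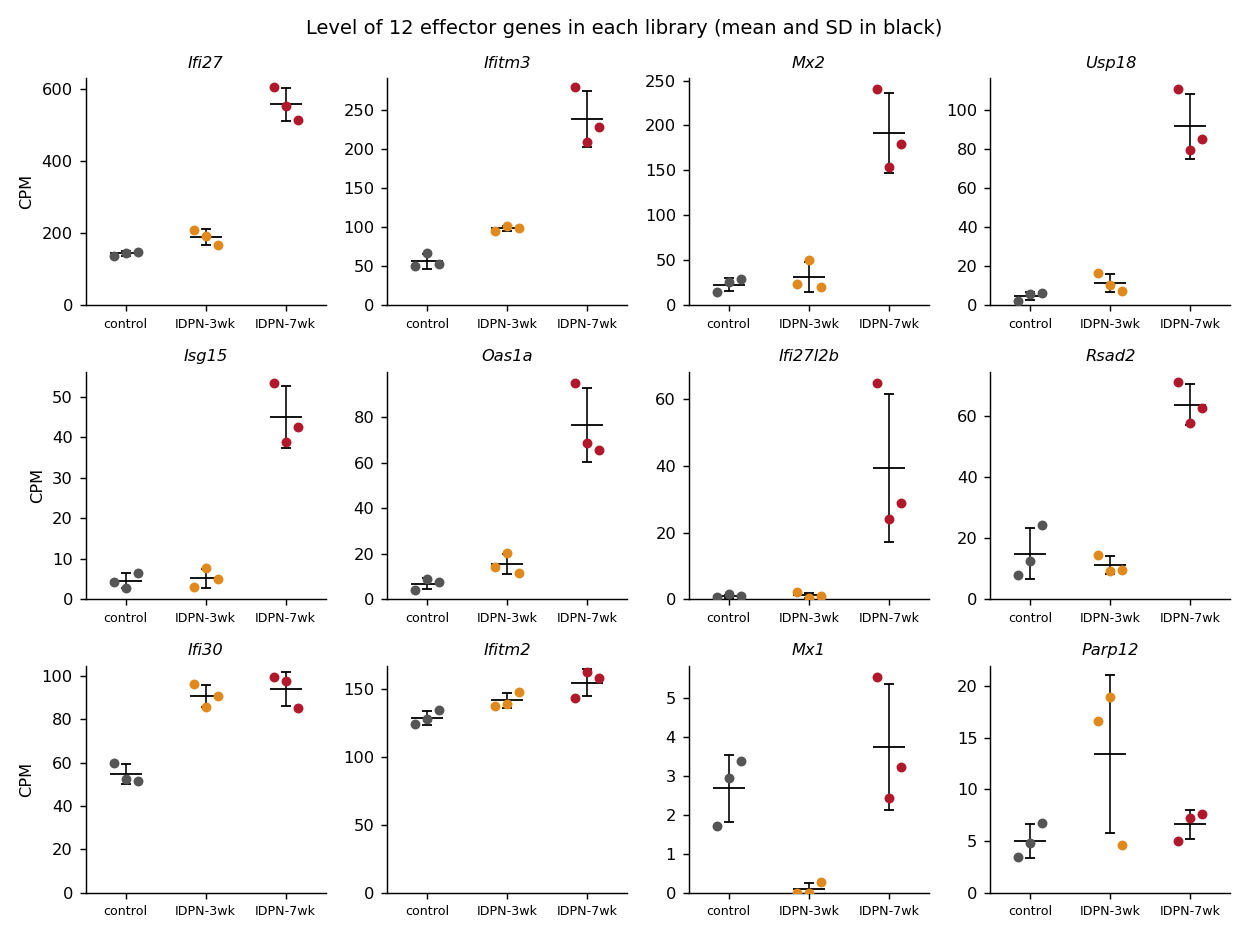
Level in CPM (y axis, from 0, its own scale in each panel) of 12 effector genes in the 3 libraries of each group, with the mean and SD in black. Ifi30 and Ifitm3 were called at both times, Ifitm2, Mx1 and Parp12 were not called by edgeR at either time, and the other 7 genes were called at 7 weeks and not at 3 weeks.

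The pathway upstream of these genes was read from lists of its parts. The interferon genes themselves were almost without counts. Among the 11 interferon genes listed, 6 were at 0 in all 9 libraries, Ifnb1 and Ifng among them, the sum of all 11 was at most 0.539 CPM in any library, and none passed the filter for a test. Such transcripts can be short-lived and few, and an upper limit of 0.0611 to 0.101 CPM per gene is what a count of 0 allows here.

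The receptors and their kinases were well detected and not called. None of the 9 genes (Ifnar1, Ifnar2, Ifngr1, Ifngr2, Ifnlr1, Il10rb, Jak1, Jak2 and Tyk2) was called by edgeR in any comparison, and 4 had an unadjusted p under 0.05 at 7 weeks, all higher (8.55% of all genes did), where DESeq2 called 1 (3.48% of all genes it tested). At 3 weeks 3 had such a p, all higher (7.12% of all genes). In the direct comparison 1 was higher and 1 lower (6.33% and 7.46% of all genes were). DESeq2 called none in either. Their summed level was 467 to 521 CPM in control and 573 to 637 CPM in IDPN-7wk rats. Ifnar2, a subunit of the type I receptor, had the highest log2 value of the list at 7 weeks, 0.59 (adjusted p = 0.104).

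Several transcription factors of the pathway also rose. Of 8 factors 3 were called higher at 7 weeks, against 2.00% of all genes tested. None was called at 3 weeks by edgeR or DESeq2. There 1 was higher and 1 lower at an unadjusted p under 0.05 (7.12% and 8.63% of all genes were). Stat2, a part of the complex that binds the ISRE, was at 63.4, 60.1 and 55.1 CPM in control, 49, 53.7 and 58.6 CPM in IDPN-3wk and 173, 135 and 125 CPM in IDPN-7wk rats, and rose by 1.28 on the log2 scale (adjusted p = 0.000622). Irf9, the DNA-binding part of that complex, rose by 1.41 (adjusted p = 0.00223). Irf7, the factor that amplifies interferon production, showed the largest change of the list, from 10.1, 12.0 and 22.1 CPM in control to 151, 95.5 and 85.3 CPM at 7 weeks, which is 2.91 on the log2 scale (standard error 0.415, adjusted p = 0.00307). Stat2 and Irf7 were also higher than at 3 weeks in the direct comparison, while Irf1, Irf2, Irf3, Irf5 and Irf8 were not called.

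Among sensors and adaptors 3 of 7 tested genes rose at 7 weeks, against 2.00% of all genes tested. They were the cytosolic RNA sensors Ddx58 (RIG-I, log2 fold change 1.75), Ifih1 (MDA5, 1.62) and Dhx58 (LGP2, 2.13). The adaptor Mavs, with a value of 0.12, was not called, nor was Tmem173 (STING), with a value of 2.05 (adjusted p = 0.0727). In the direct comparison with 3 weeks edgeR called none of the 7, with Dhx58 at an adjusted p of 0.0518. DESeq2 called 3 higher there, against 1.84% of all genes it tested. Of the feedback inhibitors Socs3 rose at 7 weeks by 2.10 (adjusted p = 0.0448) and Socs1 was not called (log2 value 0.39).

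Macrophage markers were higher together with the effector genes at 7 weeks. The summed level of 14 macrophage markers was 165, 123 and 174 CPM in control, 95.7, 220 and 108 CPM in IDPN-3wk and 385, 324 and 316 CPM in IDPN-7wk rats, with control and IDPN-3wk libraries overlapping and every IDPN-7wk library above both. C1qb and Cd14 were called higher at 7 weeks, against 2.00% of all genes tested. All 14 had a log2 value of at least 0.77 there, with a median of 1.26, and DESeq2 called 7, against 3.48% of all genes it tested. In the direct comparison with 3 weeks edgeR called none and DESeq2 called 6 higher, against 1.84% of all genes it tested. Within the IDPN-3wk group replicate 2 had the highest sum of macrophage markers, 220 CPM. It also had the highest sum of effector genes, which stood at 1099, 1145 and 1023 CPM in replicates 1, 2 and 3. By median shift of the effector genes it was the lowest, at 0.163 against 0.205 and 0.168 in replicates 1 and 3. Replicates 1 and 3 had macrophage sums of 95.7 and 108 CPM, under every control, while their effector sums lay above every control. Markers of T and NK lymphocytes summed to 10.8 to 11.2, 6.73 to 9.5 and 15.6 to 28.3 CPM in the same order of groups, the highest in IDPN-7wk replicate 1. Of these 10 markers edgeR tested 3, and neither edgeR nor DESeq2 called any at 7 weeks. In the direct comparison edgeR called none and DESeq2 called 1 higher (1.84% of all genes it tested). Markers of B lymphocytes summed to at most 0.675 CPM, with Ms4a1 at 0. Hair cell markers summed to 1992 to 2480 CPM in control, 916 to 1221 CPM in IDPN-3wk and 960 to 1068 CPM in IDPN-7wk rats. The 6 hair cell markers did not all fall at 3 weeks, with log2 values from -1.63 to 0.55 and a median of -0.37. At 7 weeks their values ran from -1.49 to -0.33. Schwann cell markers summed to 9110 to 11430 CPM in control and 3083 to 6534 CPM at 7 weeks. Supporting cell markers summed to 11850 to 12260, 6701 to 8765 and 4425 to 6724 CPM, endothelial markers to 331 to 349, 379 to 447 and 295 to 470 CPM, and neutrophil markers, with Elane at 0, to at most 8.09 CPM. The part of each cell type in the rise of the effector genes was not tested.

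**Figure D5:**
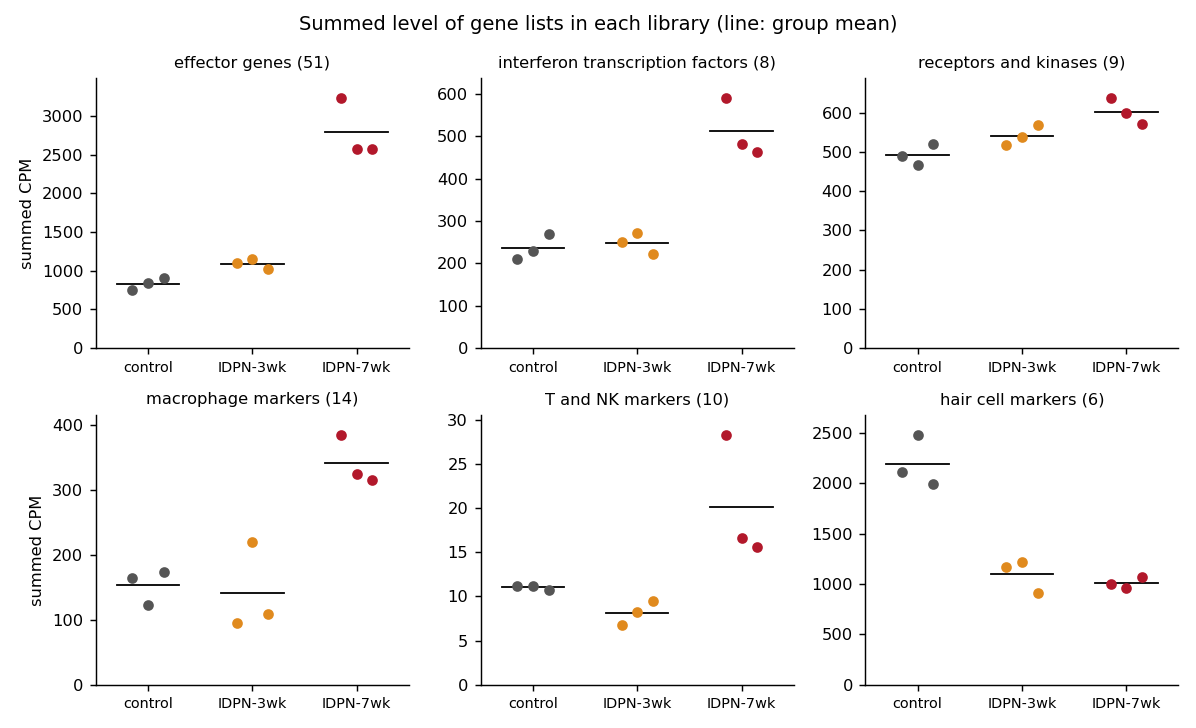
Summed CPM (y axis, from 0, its own scale in each panel) of gene lists in each library, with the number of genes in brackets and a line at each group mean. The sums of all lists but the hair cell markers are highest in the 3 IDPN-7wk libraries. For receptors and kinases the margin is small, 573 CPM in the lowest IDPN-7wk library against 569 CPM in IDPN-3wk replicate 3. The summed hair cell markers are lower than control in both exposed groups.

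The effector genes were also compared within the libraries of like gene detection. Among the libraries with more detected genes, IDPN-7wk exceeded control by a median of 1.57 on the log2(CPM + 2) scale (3 libraries against 2) and IDPN-3wk by 1.24 (3 against 1). The IDPN-3wk group exceeded control by a median of 0.228 among these (1 library against 2) and of 0.166 among the libraries with fewer detected genes (2 against 1). With library set as a covariate in the edgeR fit, 29 effector genes were called higher at 7 weeks and 2 at 3 weeks, and 13 in place of 20 in the direct comparison. Leaving out IDPN-7wk replicate 1, which had the highest summed level of effector, macrophage and lymphocyte genes, gave 23 genes called at 7 weeks and 12 in the direct comparison. Of the 28 genes called at 7 weeks, 23 were called, at the same thresholds, in every alternative fit that tested them, and Gbp7, Herc6, Ifi44, Ifit2 and Oas2 were not.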

How the data were processed

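Vestibular epithelia of 9 rats were sequenced with the SMARTseq2 protocol, which uses no molecular identifiers, so floors cover counting error only. The authors aligned paired reads to Rnor6.0 with STAR (version 2.5.3a per the labels) and made gene-level expected counts with RSEM (1.3.0 per the labels) and the Ensembl annotation of that build. The deposited values are these estimated counts, whole numbers that are not normalized, and 0 of its columns belonged to other samples. Here genes were kept by filterByExpr, scaled by TMM and tested in edgeR 4.0.16 (R 4.3.3) with the robust quasi-likelihood test, all 9 libraries in 1 fit (6 residual degrees of freedom), with Benjamini-Hochberg adjustment over 15517 genes. Calls needed adjusted p under 0.05 together with a fold change over 1.5. A standard error is the absolute log2 fold change divided by the square root of F. CPM use TMM-scaled library sizes and are not comparable between genes, since no lengths were given. Each library is a separate rat. No replicate pair differed by less than sampling noise. Over 3 rats a group, an exact permutation test of 1 gene could not pass, so the fit across all genes was used. DESeq2 1.42.0, other filters, scalings and library sets were tried, and a covariate for the title number was added after seeing the data. All 51 genes are accounted for, and those called are named with values. The genes, the pathway and marker lists and the motifs were chosen with earlier results of these data known. Promoters came from RefSeq (GRCr8), a build other than that of the counts, and were matched by symbol. A gene of the pathway lists is not reported here.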

Additional observations from a re-analysis of the deposited data

Results flagged for a closer look

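The 20 effector genes whose level differed between the exposure times in the direct edgeR comparison were set apart, each with its log2 difference of IDPN-7wk over IDPN-3wk rats. All were higher at 7 weeks. Oas2, with 0 counts in the IDPN-3wk libraries, had the largest fitted value, 10.74, which depends on the prior count and is no measure of size. The filter kept Oas2 only through the IDPN-7wk libraries. Ifi27l2b differed by 5.17, Isg15 by 3.13, Usp18 by 3.02, Oas1i by 2.81, Mx2 by 2.60, Rsad2 by 2.53, Oas1a by 2.33, Rtp4 by 2.20 and Ifit1 by 2.17. Smaller differences were those of Gbp2 (1.99), Uba7 (1.67), Irgm (1.64), Ifi27 (1.56), Parp9 (1.45), Ifitm3 (1.28), Lgals9 (1.23), Ifi44 (1.17), Igtp (1.09) and Eif2ak2 (0.99). The effector genes called at 7 weeks and not in this list were Gbp7, Herc6, Ifi30, Ifit2, Ifitm1, Oas1b, Oasl2 and Parp14.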

How the results depend on the processing

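The median log2 fold change of the effector genes kept its sign in each of the 16 alternative fits, and the fold thresholds do not enter it. At 7 weeks it was 1.62 to 1.95. At 3 weeks (0.39 as reported) it was 0.27 to 0.44 with 1 library left out, and in the direct comparison (1.40) 1.16 to 1.58, the lowest without IDPN-7wk replicate 1. At 3 weeks and in the direct comparison some of these moved by more than the pooled SD of the library medians (0.091 and 0.194). With a covariate for the title number that IDPN-3wk replicate 1 and IDPN-7wk replicate 1 share, an alternative chosen after seeing the data, the 3-week median was 0.25, with 1 gene called higher (Ifi30), 25 were called at 7 weeks and 20 in the direct comparison. The count called higher at 7 weeks stayed between 23 and 37 (28 as reported). At 3 weeks the count of 2 was less stable. It was 5 with DESeq2, 1 with only the compared groups in the fit and 0 with a fold change over 2, and it ran from 1 to 4 when 1 library was left out. It was 1 without any 1 of the control replicates (Ifi30, except without control replicate 2, where it was Ifitm3) or without IDPN-3wk replicate 2, and 4 without IDPN-3wk replicate 3, where Eif2ak2 and Parp12 were added. The count called lower at 3 weeks was 2 with DESeq2 and ran from 0 to 1 with 1 library left out, where Mx1 was called without IDPN-3wk replicate 3. In the direct comparison the 20 genes became 13 with library set as a covariate and 12 to 22 with 1 library left out, the lowest without IDPN-7wk replicate 1, and 29 with DESeq2. The cause of these changes was not tested. Of the 20, 9 were called, at the same thresholds, in every alternative fit that tested them. They were Gbp2, Ifi27, Ifit1, Ifitm3, Isg15, Oas1a, Oas1i, Rtp4 and Usp18. The other genes of the 20 lost the call in at least 1 fit. No paired analysis was possible because the labels give no replicate number that spans the groups, and the title number joins only 1 IDPN-3wk and 1 IDPN-7wk rat. With 3 rats a group and few counts, Oas1e, Oas1h, Oas3, Gbp6, Ifi44l and Ifit1bl limit what can be said of them.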
